A study of Mus musculus with 12 samples.

Results

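The genes of the unfolded protein response and of secretion through the endoplasmic reticulum (ER) were followed across the light zone (LZ) and dark zone (DZ) of the germinal centre (GC), at high and at low affinity for antigen. They are 40 genes taken by name and not by measured value, but earlier results of these data were known when they were chosen. Of these, 39 had a microarray probe set that names that gene alone, and the brightest such probe set over all 12 arrays stands for the gene. Sec61g, a subunit of the translocation channel, was measured only on probe sets shared with other genes and is not described. Testing required that a gene reach the median of its array on 3 or more of the 12 arrays. The 37 members that did so reached it on all 12, and they stand among 11206 tested genes of 19938. Ern1 reached the median on 2 arrays and Sec24d on 0, so neither was tested.

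The 4 groups were GC B cells sorted from spleen 10 days after immunization, 3 arrays each. They were LZ cells of high affinity (LZ_high), LZ cells of low affinity (LZ_low), DZ cells of high affinity (DZ_high) and DZ cells of low affinity (DZ_low). All cells descended from SwHEL B cells, whose receptor recognises hen egg lysozyme. The donor cells bore CD45.1, the C57BL/6J recipients bore CD45.2, and the recipients received HEL3x, a mutant of that lysozyme, on sheep red blood cells. The gate for donor GC cells was CD45.1+ CD45.2- IgG1+ CD38 low; LZ cells were CD86 high and CXCR4 low, and DZ cells were CXCR4 high and CD86 low. Every sample is labelled female. The labels give neither an age, nor the gate for affinity, nor whether cells of several mice were pooled. Nor is it stated that arrays within a group represent different animals, and the p-values therefore reflect only how far these samples spread, in part perhaps for technical reasons. Each group had 1 array in each of 3 matched sets, read from a suffix that the sample descriptions share, and replicate numbers are those of the sets. All values are log2 expression values as the authors deposited them, and a probe set is compared only with itself across arrays.

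Proteins bound for the cell surface or for secretion enter the ER through the translocon, lose their signal peptide, fold with the help of chaperones and disulfide isomerases, and leave in coated vesicles. When unfolded protein accumulates, the sensors IRE1 (gene Ern1), PERK (Eif2ak3) and ATF6 raise the expression of chaperones and of the machinery that returns misfolded protein to the cytosol for destruction, while PERK slows translation by phosphorylating eIF2alpha, downstream of which the transcription factors ATF4 and CHOP (Ddit3) are induced. B cells are known to expand this system strongly when they become antibody-secreting plasma cells, under the transcription factor XBP1, which IRE1 activates by splicing its mRNA.

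The genes of the sort lay in the direction of the labels. Cd86, the activation marker used in the sort, was higher in LZ by 1.13 (adjusted p = 0.00138), and inside the DZ it measured 9.41, 9.58 and 9.27 in DZ_high against 10.28, 10.00 and 10.41 in DZ_low. Cxcr4, the chemokine receptor used in the sort, had a difference of -0.63 (adjusted p = 0.271, and 0.0449 with the matched set as a block). The mean of the 9 tested markers of GC B cells lay between 10.22 and 10.48 on the log2 scale over all arrays. Of 10 T cell markers 3 were tested, with Cd3d too dim on most arrays but at 7.32 in LZ_low replicate 3, and Cd3g, also too dim elsewhere, at 7.60 in that array and 6.67 in DZ_low replicate 3. Of 10 macrophage markers 4 were tested, with Adgre1 and Csf1r among those too dim. The mean of the 4 ran from 5.8 to 6.92 in LZ_low and from 5.74 to 6.11 in DZ_low. Their median difference between LZ and DZ was 0.515 at low affinity, with 3 of 4 above 0, and 0.043 at high affinity, with 2 of 4 above 0. Between high and low affinity it was -0.383 in LZ, with 3 of 4 below 0, and 0.084 in DZ, with 3 of 4 above 0. The part of these 4 markers in the results was not tested. Of 9 granulocyte markers 7 were tested, with Ly6g too dim, and S100a8 ranged from 5.01 to 9.60 over the arrays. The arrays of matched set 3 stood apart, and 13 members were higher in that set in all 4 groups, against 21.1% of tested genes, among them Derl2 by 1.03, Ssr2 by 0.75 and Syvn1 by 0.70. Another 4 members were lower there in all 4 groups, against 15.7% of tested genes, among them Dnajc3 with a mean shift of -0.93 and Hsp90b1 with one of -0.57. Matched set 2 stood apart for the members too, with 13 lower there in all 4 groups, against 14.9% of tested genes, and 3 higher, against 11.9%. Matched set 1 had 9 members higher in all 4 groups, against 12.3%, and 3 lower, against 11.3%.

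The promoters of the members were read from RefSeq windows of 250 bases before to 50 bases after the start of each gene on GRCm38.p6. Of the 40 members 32 had a window. Both strands were searched for the ER stress response element (ERSE), known to bind ATF6 and XBP1 together with NF-Y and spelled here as a CCAAT box, 9 bases of any kind and a CCACG box. It was found in 9 of the 32 members, or 28.1%, against 0.137% of 27025 genes with a window. The related ERSE-II, an ATTGG box and a CCACG box with 1 base of any kind between, was found in 2 members, or 6.25%, against 0.0444% of genes. The core of the XBP1 response element, TGACGTGG, was found in 1 member, Sec24d, against 0.714% of genes, and the ATF4-type element TGATGCAAT was found in 0 members, against 0.222% of genes. ERSE and ERSE-II both end in CCACG and could overlap, but no member held both, and the core of the XBP1 element contains CGTGG, the reverse complement of CCACG. A match describes letters in a window and is not a measured binding site. The members were taken by name for a response whose factors bind the ERSE, so these shares are not independent of that choice. The elements are shown as a sequence feature that a part of the members hold. The fixed letters are in capitals and the spacer in lower case, each element read 5′ to 3′ on the strand where it matched:
Calr: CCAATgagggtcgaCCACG
Canx: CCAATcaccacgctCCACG
Creld2: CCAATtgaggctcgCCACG
Derl3: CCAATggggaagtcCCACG
Dnajc3: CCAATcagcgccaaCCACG
Hsp90b1: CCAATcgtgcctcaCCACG
Hsp90b1: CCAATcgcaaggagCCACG
Hspa5: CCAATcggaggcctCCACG
Pdia6: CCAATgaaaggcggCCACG
Syvn1: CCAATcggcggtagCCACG
Dnajb11: ATTGGcCCACG
Herpud1: ATTGGgCCACG

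The upstream windows of 4 members are shown because the results turn on 3 of them and Hspa5 is the classical target. Capitals mark every CCAAT or CCACG box and its reverse complement, ATTGG or CGTGG. The windows are chr6:47813513-47813762 (minus strand) for Pdia4, chr15:88819396-88819645 (plus strand) for Creld2, chr16:17132384-17132633 (minus strand) for Sdf2l1 and chr2:34771840-34772089 (plus strand) for Hspa5:
Pdia4: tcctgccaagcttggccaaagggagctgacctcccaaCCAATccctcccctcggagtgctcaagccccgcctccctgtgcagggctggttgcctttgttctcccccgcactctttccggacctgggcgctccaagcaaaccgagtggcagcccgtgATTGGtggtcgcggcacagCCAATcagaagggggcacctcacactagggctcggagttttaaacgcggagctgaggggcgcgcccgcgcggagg
Creld2: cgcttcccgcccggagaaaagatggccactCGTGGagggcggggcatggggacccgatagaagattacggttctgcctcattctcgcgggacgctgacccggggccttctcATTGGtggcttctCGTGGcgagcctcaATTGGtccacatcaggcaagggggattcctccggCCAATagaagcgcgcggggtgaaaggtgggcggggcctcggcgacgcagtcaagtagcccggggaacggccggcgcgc
Sdf2l1: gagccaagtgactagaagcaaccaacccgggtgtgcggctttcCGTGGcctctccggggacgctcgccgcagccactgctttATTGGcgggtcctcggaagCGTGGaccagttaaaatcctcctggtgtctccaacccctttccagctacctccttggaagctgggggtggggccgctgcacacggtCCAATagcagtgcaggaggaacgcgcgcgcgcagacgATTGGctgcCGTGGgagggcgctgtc
Hspa5: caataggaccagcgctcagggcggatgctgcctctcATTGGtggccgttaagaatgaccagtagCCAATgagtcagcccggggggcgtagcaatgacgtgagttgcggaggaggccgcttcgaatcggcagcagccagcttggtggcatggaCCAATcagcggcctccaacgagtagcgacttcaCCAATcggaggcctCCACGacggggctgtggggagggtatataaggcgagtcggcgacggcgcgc
The Pdia4 window held 3 CCAAT boxes and 0 CCACG boxes. The Creld2 window held 3 and 2, with the ERSE on the strand opposite to the gene. The Sdf2l1 window held 3 and 3, none at the ERSE spacing. The Hspa5 window held 4 and 1, with the ERSE 46 bases before the start.

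Between LZ and DZ, averaged over both affinities, most members had small differences, and a few stood apart in opposite directions. Pdia4, Eif2ak3, Lman1 and Creld2 were lower in LZ and Atf6 and Pdia6 higher, all at an unadjusted p under 0.05 only. After adjustment over all tested genes limma called 0 of 37 members, against 0.419% of tested genes. With the matched set as a block it called 1, Pdia4, against 1.2%. At an unadjusted p under 0.05 there were 4 members lower, against 2.95% of tested genes, and 2 higher, against 4.1%. With the block these were 6 lower, against 4.31%, and 3 higher, against 6.5%. The difference was above 0 for 18 of 37 members, against 49% of tested genes, and the median of the members was -0.016, against -0.004 over all tested genes. In no member were all 6 LZ arrays apart from all 6 DZ arrays, against 0.535% of tested genes higher and 0.455% lower without overlap. In bulk samples such as these, fewer cells of a type and less RNA per cell cannot be told apart.

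**Figure D1:**
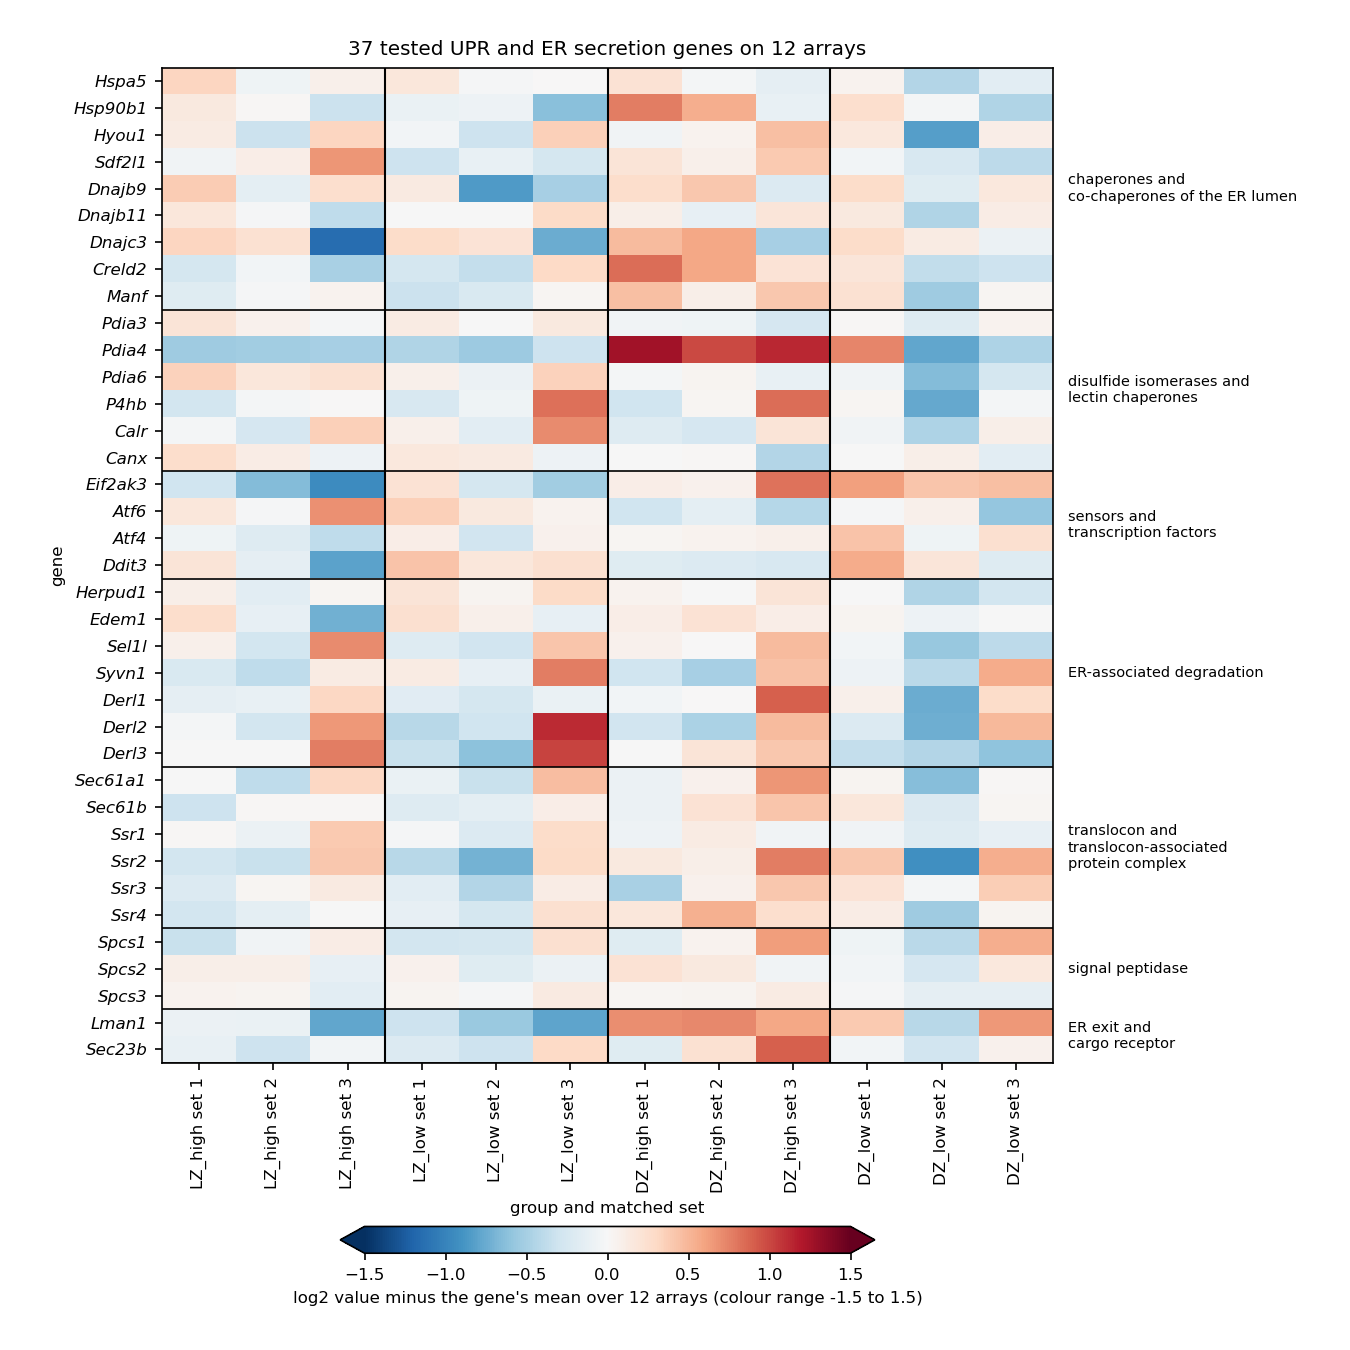
Log2 value minus the gene's mean over 12 arrays for the 37 tested members (down, grouped by role) on each array (across, grouped as LZ_high, LZ_low, DZ_high and DZ_low, replicates 1 to 3 within each). Pdia4 stands out on the 3 DZ_high arrays, and DZ_low replicate 2 is the lowest of the 12 arrays for 17 of the members.

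Pdia4 encodes a disulfide isomerase of the ER lumen, also called ERp72. Its values were 7.95, 7.96 and 7.99 in LZ_high and 8.03, 7.94 and 8.17 in LZ_low, against 9.74, 9.47 and 9.61 in DZ_high and 9.22, 7.70 and 8.02 in DZ_low. All 3 DZ_high arrays and DZ_low replicate 1 were higher than every LZ array, whereas the other 2 DZ_low arrays lay within or below the range of LZ. The difference between LZ and DZ was -0.96 (SE 0.22, n = 6 each; adjusted p = 0.115 by limma, and 0.0478 with the block), and over the alternatives tried the adjusted p ran from 0.00633 to 0.287, under 0.05 in 4 of 33. Of the 12 blocked fits that left out 1 array each, those without DZ_low replicate 1 (-0.74) and without DZ_low replicate 2 (-1.09) called it and the others did not, and without matched set 3 the difference was -1.06. A second probe set of Pdia4 was dim, with means of 4.19 in LZ_high, 4.36 in LZ_low, 4.61 in DZ_high and 4.17 in DZ_low, and with the mean of both probe sets the difference was -0.54.

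Lman1 encodes ERGIC-53, a lectin that carries glycoproteins from the ER to the Golgi. It measured 8.25, 8.23 and 7.55 in LZ_high and 8.02, 7.78 and 7.54 in LZ_low, against 9.03, 9.05 and 8.91 in DZ_high and 8.73, 7.92 and 8.98 in DZ_low. All DZ arrays but DZ_low replicate 2 were higher than every LZ array. The difference was -0.87 (SE 0.19; adjusted p = 0.104, with a range of 0.00576 to 0.27 over the alternatives), and without DZ_low replicate 2 Lman1 was called, at -1.03. Without matched set 3 it was -0.61.

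Among the sensors, Eif2ak3, which encodes PERK, measured 8.83, 8.48 and 8.18 in LZ_high and 9.35, 8.86 and 8.61 in LZ_low, against 9.23, 9.19 and 9.94 in DZ_high and 9.75, 9.55 and 9.58 in DZ_low. LZ was lower in all 6 pairs of arrays that share a matched set and an affinity, and the groups overlapped through LZ_low replicate 1. The difference was -0.82 (SE 0.18; adjusted p = 0.0994, with a range of 0.012 to 0.251 over the alternatives), and it was -0.55 without matched set 3.

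Atf6, whose product is cut in the Golgi to release a transcription factor, went the other way. It measured 8.79, 8.61 and 9.31 in LZ_high and 8.98, 8.77 and 8.68 in LZ_low, against 8.33, 8.48 and 8.20 in DZ_high and 8.61, 8.70 and 8.04 in DZ_low. LZ was higher in 6 of 6 pairs, by 0.46 on average (SE 0.16; adjusted p = 0.408), and by 0.26 without matched set 3, a drop of over 1.5 times. Ern1, which encodes IRE1, was too dim to test, at 5.09, 4.89 and 5.44 in LZ_high and 5.18, 5.30 and 5.07 in LZ_low, against 5.75, 5.83 and 5.22 in DZ_high and 5.31, 5.39 and 5.32 in DZ_low.

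Downstream of PERK, Atf4 measured 9.18, 9.05 and 8.87 in LZ_high and 9.35, 8.96 and 9.31 in LZ_low, against 9.28, 9.30 and 9.33 in DZ_high and 9.68, 9.18 and 9.49 in DZ_low. LZ was lower in 6 of 6 pairs, but the ranges overlapped, and the difference was -0.26 (95% interval -0.52 to 0.01). Ddit3, which encodes the CHOP transcription factor, measured 8.35, 8.02 and 7.35 in LZ_high and 8.58, 8.32 and 8.40 in LZ_low, against 7.98, 7.95 and 7.91 in DZ_high and 8.71, 8.34 and 7.96 in DZ_low. Its zones overlapped throughout, with a difference of 0.03 (95% interval -0.36 to 0.42).

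The major chaperones overlapped between the zones. Hspa5 encodes BiP, the ER chaperone that also holds the sensors inactive, and measured 11.28, 10.90 and 11.04 in LZ_high and 11.13, 10.95 and 10.97 in LZ_low, against 11.18, 10.93 and 10.83 in DZ_high and 11.02, 10.52 and 10.80 in DZ_low. The ranges overlapped and the difference was 0.17 (95% interval -0.10 to 0.43). Hsp90b1, which encodes GRP94, the ER form of HSP90, measured 11.92, 11.79 and 11.45 in LZ_high and 11.68, 11.70 and 11.15 in LZ_low, against 12.54, 12.32 and 11.67 in DZ_high and 12.03, 11.75 and 11.33 in DZ_low. LZ was lower in 6 of 6 pairs, with a mean difference of -0.32 (95% interval -0.74 to 0.09; unadjusted p = 0.114 by limma, and 0.00679 with the matched set as a block), and the arrays of matched set 3 were the lowest of each group.

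Of the isomerases other than Pdia4, Pdia6 measured 9.68, 9.51 and 9.56 in LZ_high and 9.41, 9.25 and 9.68 in LZ_low, against 9.31, 9.38 and 9.22 in DZ_high and 9.28, 8.68 and 9.07 in DZ_low. LZ was higher in 6 of 6 pairs, by 0.36 on average (SE 0.13; adjusted p = 0.433). Pdia3, which works with the lectin chaperones on glycoproteins, measured 11.06, 10.93 and 10.85 in LZ_high and 10.99, 10.86 and 11.02 in LZ_low, against 10.82, 10.80 and 10.62 in DZ_high and 10.89, 10.68 and 10.92 in DZ_low. LZ was higher in 6 of 6 pairs here too, but by 0.17 on average (95% interval -0.04 to 0.38). The 6 isomerases and lectin chaperones therefore held both directions, with 5 above 0 and Pdia4 alone below, around a median of 0.167.

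In all, 4 members were higher in LZ in 6 of 6 pairs (Atf6, Canx, Pdia3 and Pdia6, against 4.54% of tested genes) and 4 were lower in 6 of 6 (Atf4, Eif2ak3, Hsp90b1 and Lman1, against 3.74%). The 7 degradation members had a median of 0.149 with a range of -0.15 to 0.27, the 6 translocon members a median of -0.173 with a range of -0.34 to 0.12, and the 3 signal peptidase subunits a median of -0.058.

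**Figure D2:**
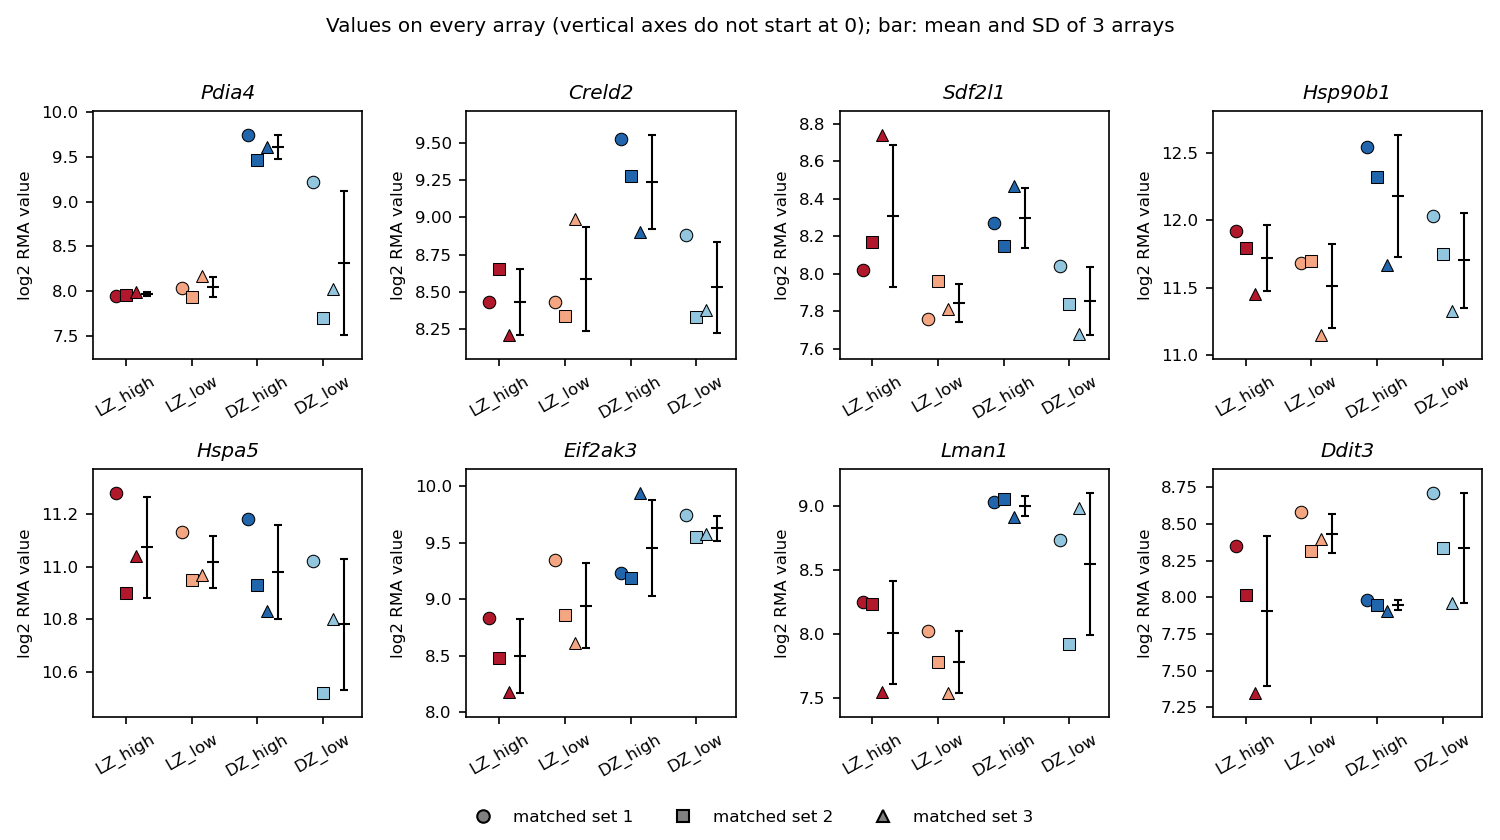
Log2 expression of 8 members on each array (points), with the mean and SD of the 3 arrays of each group, in the order LZ_high, LZ_low, DZ_high and DZ_low. The Pdia4 arrays of DZ_high lie between 9.47 and 9.74, above all other arrays, and the Lman1 arrays of DZ lie above those of LZ but for DZ_low replicate 2 at 7.92.

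At high affinity, in LZ_high against DZ_high, limma called 0 members after adjustment, against 0.0357% of tested genes (0 members, against 0.0803%, with the block), and at an unadjusted p under 0.05 there were 5 lower, against 1.92%, and 1 higher, against 2.61%. The largest was Pdia4, -1.64 (SE 0.31; adjusted p = 0.155, and 0.0647 with the block). Creld2, which encodes a protein of the ER lumen induced by ER stress, had a difference of -0.81 (SE 0.24), and Ssr4, the delta subunit of the translocon-associated protein complex, one of -0.46 (SE 0.21). The 3 LZ_high arrays were below the 3 DZ_high arrays without overlap for 7 members (Atf4, Creld2, Eif2ak3, Lman1, Manf, Pdia4 and Ssr4), against 3.66% of tested genes, and above them for 3 (Atf6, Pdia3 and Pdia6), against 3.72%. Without DZ_low replicate 1, which leaves the values compared as they are but enters the estimate of spread, Pdia4 was called at -1.64 (adjusted p = 0.00643, with a range of 0.00643 to 0.584 over the alternatives). In that fit 0.0446% of tested genes were called.

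At low affinity, in LZ_low against DZ_low, limma called 0 members, against 0.0357% of tested genes (0 members, against 0.223%, with the block), and at an unadjusted p under 0.05 there were 2 lower, against 1.78%, and 2 higher, against 2.92%. Here Pdia4 had a difference of -0.27 (95% interval -0.94 to 0.40) and Creld2 of 0.06 (95% interval -0.46 to 0.58). Lman1 had -0.76 and Eif2ak3 -0.69, and LZ_low was below DZ_low without overlap for Eif2ak3 alone, against 3.86% of tested genes. Herpud1, an ER membrane protein that organises the degradation complex, was above without overlap, against 5.41%. It measured 9.46, 9.22 and 9.40 in LZ_high and 9.57, 9.41 and 9.66 in LZ_low, against 9.43, 9.37 and 9.56 in DZ_high and 9.37, 8.92 and 9.10 in DZ_low. The lowest of the 12 arrays were DZ_low replicates 2 and 3, and the difference at low affinity was 0.41 (SE 0.15), against -0.09 at high affinity.

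In the DZ, the members lay mostly higher in high-affinity than in low-affinity cells. Limma called 0 of 37 after adjustment, with and without the block, and 0 of all 11206 tested genes (0%). The sign was the same in all 3 matched sets for 13 members higher, against 9.31%, and 2 lower (Ddit3 and Syvn1), against 12.7%. At an unadjusted p under 0.05 there were 3 members higher (Pdia4, Creld2 and Sdf2l1), against 0.937% of tested genes, and 0 lower, against 1.27%. With the block there were 10 higher, against 1.87%, and 0 lower, against 3.46%. The difference was above 0 for 29 of 37 members, against 50.4% of tested genes, and their median was 0.186, against 0.002 over all tested genes. The DZ_high arrays were above the DZ_low arrays without overlap for 8 members (Creld2, Derl3, Edem1, Pdia4, Sdf2l1, Sel1l, Spcs3 and Ssr4), against 3.29%, and below them for 0, against 3.86%.

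The matched sets differed in this. The members' median was -0.023 in set 1, 0.444 in set 2 and 0.162 in set 3, beside -0.128, 0.074 and 0 over all tested genes, and the number of members above 0 was 17, 32 and 27, beside 35.4%, 59.1% and 49.2% of all tested genes. DZ_low replicate 2 was the lowest of all 12 arrays for 17 of 37 members, against 12.5% of tested genes, and without that array the members' median was 0.084 with 24 of 37 above 0, against 45.4% of tested genes. The median was also lower without DZ_high replicate 3, at 0.145 with 27 of 37 above 0, against 46.6% of tested genes. With array weights it was 0.151 with 25 above 0, against 48.7%. It was 0.226 without DZ_high replicate 2, 0.291 without DZ_high replicate 1, 0.284 without DZ_low replicate 3 and 0.271 without DZ_low replicate 1. Without matched set 3 the median was 0.251 with 30 above 0, against 49.4% of tested genes. Matched set 2, which had the largest median, was not dropped as a whole in any alternative. Over all the alternatives the number above 0 ran from 24 to 31.

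**Figure D3:**
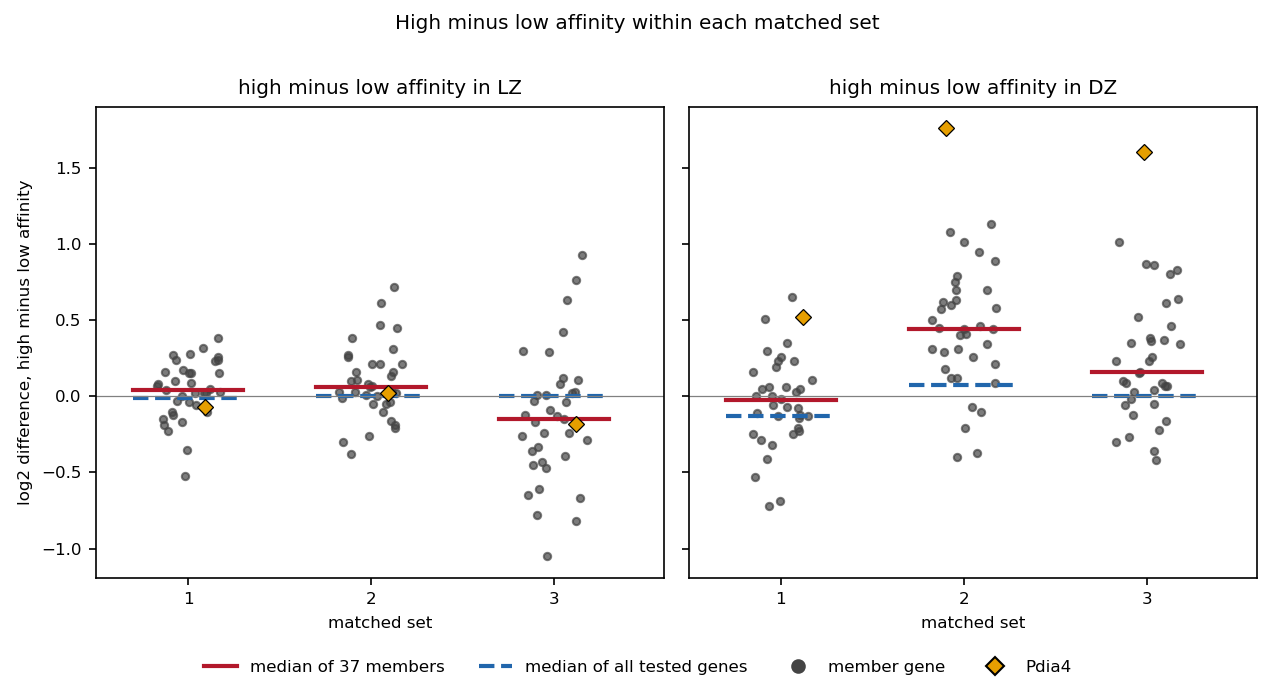
High minus low affinity (log2) for each tested member in LZ and in DZ, by matched set 1 to 3, with the median of the members as a line and Pdia4 as an orange diamond. In DZ the medians are -0.023, 0.444 and 0.162, and in LZ 0.043, 0.058 and -0.148.

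Pdia4 had the largest of these differences. DZ_high averaged 9.61 ± 0.14 and DZ_low 8.32 ± 0.80 (SD, n = 3 each), a difference of 1.29 (SE 0.31, unadjusted p = 0.00137 by limma), which is 2.45-fold. The wide spread of DZ_low came from replicate 1, and the difference by matched set was 0.52, 1.76 and 1.60. Without DZ_low replicate 1 Pdia4 was called, at 1.74 (adjusted p = 0.0102 by limma, with 0.00892% of tested genes called). Its adjusted p with all arrays was 1, and the range over the alternatives was 0.0102 to 1. Pdia4 was the only member whose 3 DZ_high arrays were above all other 9 arrays, which 0.366% of tested genes were.

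Creld2 measured 8.43, 8.65 and 8.21 in LZ_high and 8.43, 8.34 and 8.99 in LZ_low, against 9.53, 9.28 and 8.90 in DZ_high and 8.88, 8.33 and 8.38 in DZ_low. DZ_high averaged 9.24 ± 0.32 and DZ_low 8.53 ± 0.30, a difference of 0.71 (SE 0.24) with 0.65, 0.95 and 0.52 in the 3 sets. Sdf2l1, part of a chaperone complex around BiP, measured 8.02, 8.17 and 8.74 in LZ_high and 7.76, 7.96 and 7.81 in LZ_low, against 8.27, 8.15 and 8.47 in DZ_high and 8.04, 7.84 and 7.68 in DZ_low. High-affinity cells were higher in both zones and in every set, without overlap inside a zone, by 0.45 in DZ (SE 0.20) and 0.47 in LZ (SE 0.20). Without matched set 3 these differences were 0.27 and 0.24, and the LZ difference was 0.25 without LZ_high replicate 3 alone.

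The 9 chaperones and co-chaperones, Creld2 and Sdf2l1 included, were all above 0 with a median of 0.343 and a range of 0.08 to 0.71. Hsp90b1 was higher in every set, by 0.51, 0.57 and 0.34, and Hspa5 had a difference of 0.20 (95% interval -0.18 to 0.58). Manf, a small secreted ER protein, measured 10.12, 9.75 and 10.07 in DZ_high against 9.89, 9.13 and 9.70 in DZ_low, with 9.49, 9.65 and 9.72 in LZ_high and 9.34, 9.44 and 9.70 in LZ_low. High-affinity cells were above their matched low-affinity cells in 6 of 6 pairs, by 0.27 on average over both zones, and by 0.16 without DZ_low replicate 2.

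Of the degradation members, 6 of 7 were above 0, with a median of 0.321. Derl3, a derlin of the degradation machinery, measured 7.04, 7.24 and 7.46 in DZ_high against 6.69, 6.61 and 6.45 in DZ_low, without overlap, and 7.04, 7.04 and 7.82 in LZ_high against 6.72, 6.43 and 8.06 in LZ_low, with overlap. The difference in DZ was 0.66 (95% interval -0.15 to 1.47). Sel1l, the adaptor of the ubiquitin ligase complex, was higher in DZ_high by 0.11, 0.58 and 0.86 in the 3 sets. Edem1, a lectin-like protein that directs misfolded glycoproteins to degradation, measured 9.56, 9.68 and 9.56 in DZ_high against 9.50, 9.39 and 9.46 in DZ_low, close but without overlap, and 9.72, 9.34 and 8.74 in LZ_high against 9.70, 9.54 and 9.34 in LZ_low.

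Syvn1, which encodes the ubiquitin ligase HRD1 that Sel1l serves, was the exception. It measured 9.84, 9.64 and 10.58 in DZ_high against 10.07, 9.74 and 10.70 in DZ_low, and 9.91, 9.76 and 10.26 in LZ_high against 10.26, 10.02 and 10.91 in LZ_low. High-affinity cells were lower in 6 of 6 pairs, with a mean difference of -0.28 (95% interval without the block -0.78 to 0.21). The array of matched set 3 was the highest of each group. With the matched set as a block, the unadjusted p by limma was under 0.05 over both zones. In LZ it was 0.0124 with the block (adjusted p = 0.612) and 0.218 without it.

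The sensors and transcription factors were also below 0, all 4 tested, with a median of -0.163 and a range of -0.39 to -0.11. The ER exit genes were 2 of 2 above 0, Lman1 at 0.46 (95% interval -0.15 to 1.06), the signal peptidase subunits 3 of 3 with a median of 0.146, and the translocon members 5 of 6 with a median of 0.258. Ssr4 measured 9.45, 9.82 and 9.54 in DZ_high against 9.40, 8.75 and 9.32 in DZ_low, without overlap, with 9.01, 9.14 and 9.28 in LZ_high and 9.16, 9.02 and 9.52 in LZ_low. Ssr3, the gamma subunit of the same complex, was the translocon member below 0, with 7.87, 8.41 and 8.75 in DZ_high against 8.56, 8.32 and 8.72 in DZ_low, and 8.15, 8.38 and 8.49 in LZ_high against 8.19, 7.91 and 8.46 in LZ_low. Its groups overlapped, with a difference of -0.19 (95% interval -0.70 to 0.32).

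The members that hold an ERSE or ERSE-II and have a test, 11 in number, had a median of 0.201 in this comparison with 9 above 0, and the 18 with a window but no element had a median of 0.146 with 13 above 0. Pdia4 and Sdf2l1, named above, are among those without an element.

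Other genes also differed between the groups, and their part in these results was not tested. Cd86, the sort gene, was lower in DZ_high than in DZ_low without overlap, with a difference of -0.81 (SE 0.15; unadjusted p = 0.000217, adjusted p = 1 by limma) and the same sign in every set, while Cxcr4 had a difference of 0.04 (SE 0.26). Of 14 plasma cell markers 11 were tested, and Prdm1, Tnfrsf17 and Cd28 were too dim. The mean of the 11 ran from 8.49 to 8.60 in DZ_high and from 8.05 to 8.48 in DZ_low, and from 7.98 to 8.30 in LZ_high and from 7.90 to 8.16 in LZ_low. Their median difference in DZ was 0.232, with 9 of 11 above 0, and -0.09, 0.301 and 0.367 in the 3 sets; Xbp1, Fkbp11 and Mzb1 among them also stand in secretion lists. Jchain, which joins IgM and IgA into polymers, ran from 9.50 to 10.80 in LZ and from 10.62 to 11.53 in DZ and was lower in LZ, with a difference of -0.97 (adjusted p = 0.0427). Between LZ and DZ the 11 plasma cell markers had a median of -0.338 with 9 below 0. Limma called 2 of them lower, Jchain and Tent5c, and 0 higher, against 0.419% of tested genes. At an unadjusted p under 0.05 there were 5 lower, against 2.95%, and 2 higher, against 4.1%. Among the 2 higher was Irf4, a transcription factor of activated B and plasma cells, at 0.74. All 19 tested genes of the G2 and M phases of the cell cycle were lower in LZ, with a median of -0.381. Limma called 4 of them, against 0.419% of tested genes, and 6 with the block, against 1.2%. The 7 tested granulocyte markers had a median of 0.461 between high and low affinity in DZ, with 7 of 7 above 0. By matched set this median was 0.066, 0.97 and 0.935. Their mean ran from 5.52 to 7.48 in DZ_high and from 5.77 to 6.76 in DZ_low. In LZ it ran from 5.44 to 7.28 in LZ_high and from 5.61 to 7.27 in LZ_low.

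In the LZ, Sdf2l1 was the member whose high-affinity and low-affinity arrays did not overlap. Limma called 0 members and 0% of tested genes, and at an unadjusted p under 0.05 there was 1 member higher, Sdf2l1, against 1.75% of tested genes, and 0 lower, against 2.41%. With the block there were 2 higher (Dnajb9 and Sdf2l1), against 3.59%, and 2 lower (Ddit3 and Syvn1), against 4.36%. The difference was above 0 for 18 of 37 members, against 49.7%, with a median of -0.009. The sign was the same in all 3 matched sets for 9 members higher, against 15.1%, and 5 lower, against 16.7%. That 1 member without overlap, higher, stands against 4.32% of tested genes, and 0 members lower against 4.49%. Beside this, all 19 tested genes of the G2 and M phases of the cell cycle were above 0, with a median of 0.529. The median of the granulocyte markers was -0.638, and -0.178, 0.12 and -1.246 by matched set. The part of these lists was not tested.

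Dnajb9, a co-chaperone of BiP also known as ERdj4, measured 7.49, 6.97 and 7.37 in LZ_high against 7.25, 6.26 and 6.61 in LZ_low, and 7.38, 7.52 and 6.91 in DZ_high against 7.39, 6.93 and 7.27 in DZ_low. In LZ high-affinity cells were higher in every set, by 0.57 on average (SE 0.27), and the groups overlapped. This was 0.35 without LZ_low replicate 2. Ddit3 was lower in high-affinity cells in all 6 pairs, with a difference of -0.53 in LZ (SE 0.25) and of -0.46 (SE 0.18) as the mean of both zones. The LZ difference of Ddit3 was -0.25 without LZ_high replicate 3 and -0.27 without matched set 3. Eif2ak3 had a difference of -0.44 in LZ (SE 0.25), of -0.24 without LZ_low replicate 1 and of -0.29 without LZ_high replicate 3, and was lower in 5 of 6 pairs over both zones.

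Averaged over both zones, limma called 0 members and 0% of tested genes between high and low affinity. At an unadjusted p under 0.05 there were 2 members higher, Sdf2l1 and Pdia4, against 2.21%, and 1 lower, Ddit3, against 3.03%. With the block there were 4 higher, against 3.81%, and 2 lower, against 5.64%. Sdf2l1 had a difference of 0.46 (SE 0.14) and Pdia4 one of 0.61 (SE 0.22). High-affinity cells were higher in 6 of 6 pairs for 4 members (Hsp90b1, Manf, Sdf2l1 and Sel1l), against 2.29% of tested genes, and lower for 2 (Ddit3 and Syvn1), against 3.95%.

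**Figure D4:**
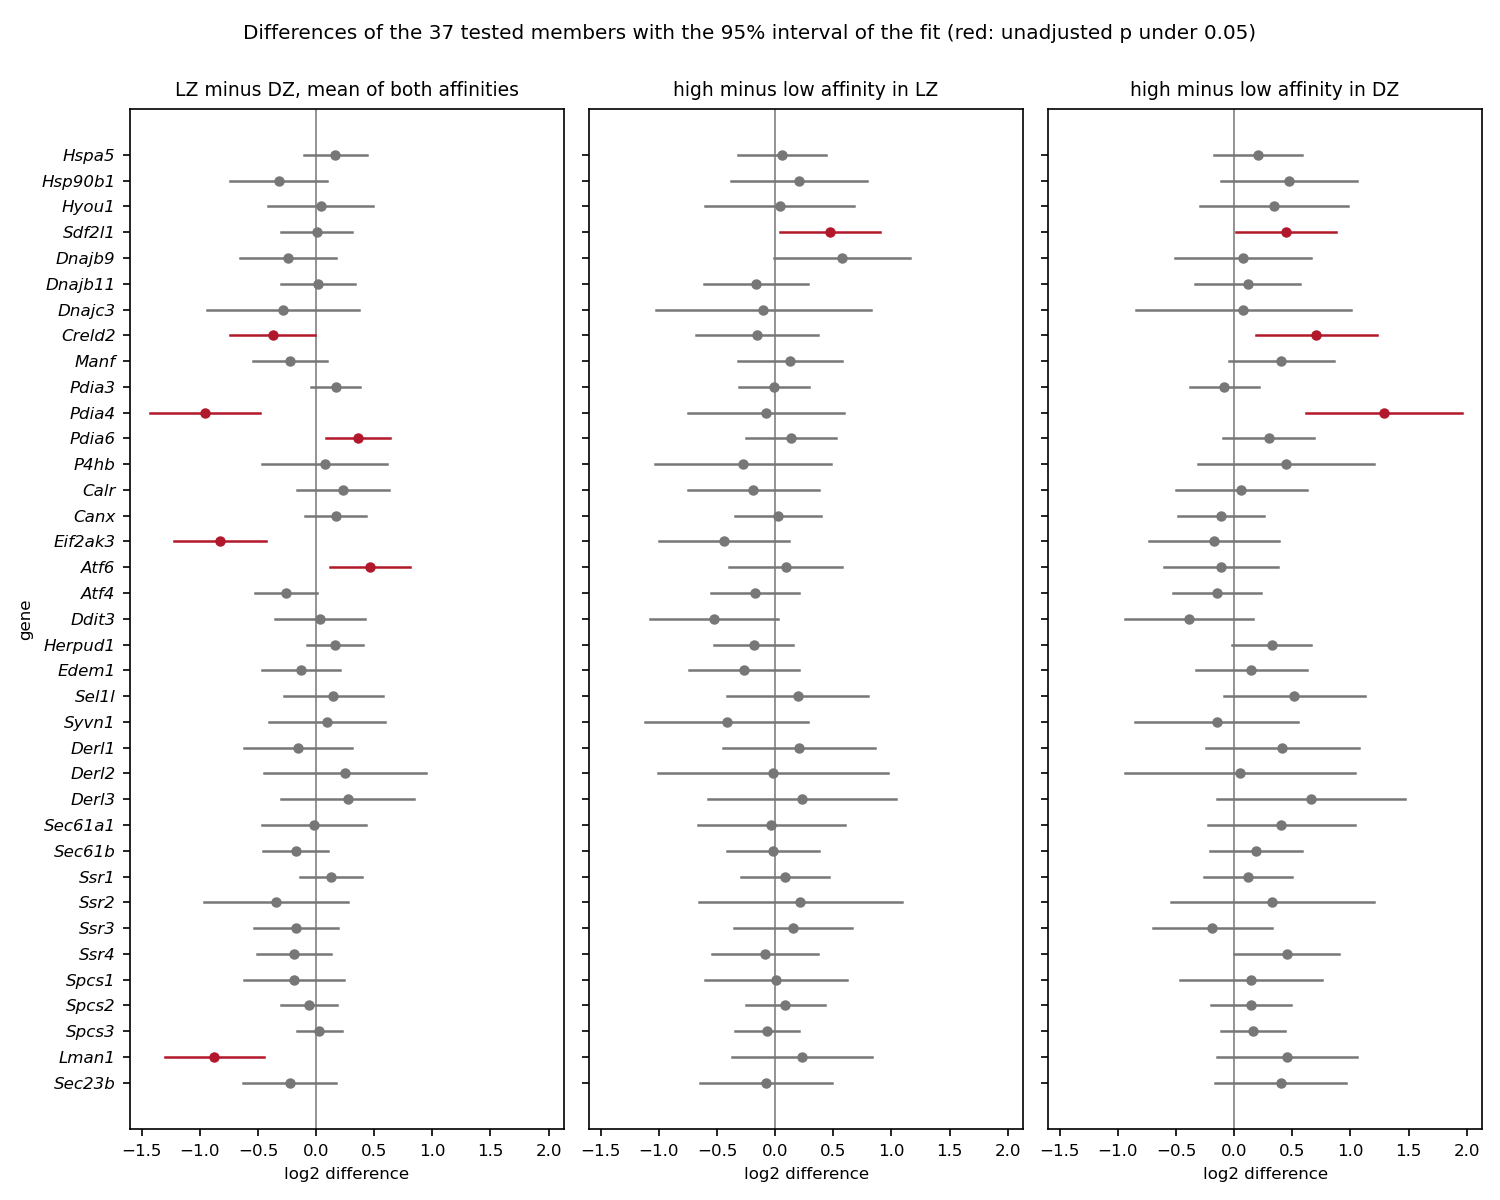
Log2 difference with its 95% interval for the 37 tested members, grouped by role, for LZ minus DZ, high minus low affinity in LZ and high minus low affinity in DZ (3 panels), with members at an unadjusted p under 0.05 in red. In DZ 29 of 37 points lie above 0, and in LZ 18 of 37.

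Whether the affinity difference itself depended on the zone was tested as the interaction, the difference in LZ minus that in DZ. Limma called 0 members and 0% of tested genes. At an unadjusted p under 0.05 there were 3 members below 0, against 0.821%, and 0 above, against 0.759%. These were Pdia4 (-1.37, SE 0.43, unadjusted p = 0.00885, adjusted p = 1), Creld2 (-0.86, SE 0.34) and Herpud1 (-0.50, SE 0.22). The interaction was above 0 for 6 of 37 members, against 49.4%, with a median of -0.227 against -0.004 over all tested genes. By matched set, 23, 5 and 10 of 37 members were above 0, beside 62.1%, 41.5% and 51.3% of tested genes, with medians of 0.066, -0.338 and -0.388. In the same contrast 6 of 7 granulocyte markers were below 0, with a median of -1.099, and of 0.258, -0.299 and -2.642 by matched set. So were 10 of 11 plasma cell markers, with a median of -0.162. The tested genes of the G2 and M phases went the other way, with 17 of 19 above 0 and a median of 0.385. The part of these lists was not tested. Both zones were compared in the same fit, and no member passed the adjusted threshold.

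Genes of the same pathway outside the 40 were read from companion lists. Of 20 further regulators of the response 17 were tested, and between high and low affinity in DZ their median was -0.088 with 7 above 0. Chac1, a glutathione-degrading target of the ATF4 branch, measured 6.04, 5.90 and 5.70 in DZ_high against 6.05, 6.32 and 6.52 in DZ_low, a difference of -0.42 (unadjusted p = 0.0214 by limma). Xbp1 measured 8.47, 7.99 and 8.78 in DZ_high against 8.33, 7.69 and 7.97 in DZ_low, and 7.73, 7.38 and 8.53 in LZ_high against 7.81, 7.51 and 8.24 in LZ_low. DZ_high was higher than DZ_low in every set, though the ranges overlapped, and probe sets of the kind used here do not report its splicing.

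Of 22 further folding and glycosylation genes 21 were tested, with a median of 0.219 in the same comparison and 17 above 0. Ddost, a subunit of the oligosaccharyltransferase, had a difference of 0.85 (SE 0.20), Fkbp11, a prolyl isomerase of secretory cells, 0.69 (SE 0.21), and Fkbp2, another ER prolyl isomerase, 0.49 (SE 0.17). Of the other lists, 14 of 15 degradation genes had a median of 0.059 with 11 above 0, 14 of 15 translocation genes a median of -0.081 with 4 above 0, and 22 of 24 transport genes a median of 0.087 with 17 above 0. None of these genes was called in the fit without the block. Between LZ and DZ, Txndc11, a thioredoxin-domain protein of the ER, had a difference of -0.90 (adjusted p = 0.0801) and was called with the block (adjusted p = 0.0405).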

How the data were processed

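The authors deposited a table of log2 values for each probe set, with a column for each of the 12 arrays. The submitters' processing notes give RMA as the method and mm8 as the genome build; they leave the base of the logarithm unstated, and 2 was inferred from a range of 1.99 to 13.74. RNA was amplified with the Ovation Pico WTA kit and labelled with biotin, per the labels' protocols. Of 28853 probe sets, 21789 name 1 gene, 1621 several and 5443 none, and 21698 of the 21789 matched the RefSeq gene table with 0 symbols changed. Array medians lay between 5.57 and 5.72. No detection calls were used. The number of arrays limits the precision, and 0 columns of values were left out.

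A limma model (version 3.58.1, run under R 4.3.3, moderated two-sided tests) gave each group its mean, using the 12 arrays together, with 7 contrasts, and p-values were adjusted by Benjamini-Hochberg over all 11206 tested genes at a threshold of 0.05. Fits were tested on simulated data with independent noise on each array. These held no matched-set effect, so they cannot decide between the fits with and without the block. Matched sets came from a suffix shared across groups in the sample descriptions; after removal of group means, 17 of 18 pairs of arrays from the same set correlated above 0.1 across genes (median 0.406, lowest -0.0712). The fit without the set as a replicate block is reported first because 1 pair fell short. Windows were searched in Python 3.11.15 with pandas 2.3.3 and numpy 2.4.6, and plots were drawn with matplotlib 3.10.9.

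The members and companion lists were chosen with earlier results of these data known. Named in full were members past the threshold with or without the block, the 3 with the smallest p in each direction of 4 contrasts, and a fixed set of sensors, chaperones and degradation genes. Ssr4, other members named for non-overlapping groups or pairs of one sign, and the counts of which array was lowest or highest were chosen after the values were seen. Alternatives were the replicate block, testing dim genes too or raising the filter to percentile 75, quantile normalization, median centring, array weights, averaging the probe sets of a gene, omitting single arrays, and dropping matched set 3 with and without the block, the last chosen because that set was known to stand apart. Added after seeing the data were blocked fits that drop 1 array and the count of members above 0 under each alternative.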

Additional observations from a re-analysis of the deposited data

How the results depend on the processing

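With the replicate block, the members called between LZ and DZ over both affinities numbered 1 (Pdia4, -0.96), against 1.2% of tested genes. New quantile normalization also called 1 (Lman1), against 0.714%, and array weights, whose iteration stopped before it converged, called 3 (Eif2ak3, Lman1 and Pdia4), against 2.92% in this contrast and 1.3% at high affinity. Leaving out 1 array gave 0 to 1 calls between the zones over both affinities (Lman1 without DZ_low replicate 2, 0.178% of genes). It gave 0 to 1 at high affinity (Pdia4 without DZ_low replicate 1, 0.0446%) and 0 to 1 for affinity in DZ (Pdia4 without the same array, 0.00892%). With the block the calls over both affinities were 1 without DZ_high replicate 1 (Eif2ak3, 0.643% of genes), 1 without DZ_low replicate 1 (Pdia4, 0.767%) and 2 without DZ_low replicate 2 (Lman1 and Pdia4, 0.723%). Without DZ_low replicate 1 the blocked fit also called Pdia4 at high affinity (0.0803%) and for affinity in DZ (0.00892%). The members' median between the zones was -0.058 with no filter on dim genes and -0.124 with array weights, and ran from -0.12 to 0.043 as arrays were left out. Small zone differences turned sign: Derl3 was -0.01 with array weights and -0.09 without matched set 3, Edem1 was 0.04 without that set, both with and without the block, and Ddit3 was -0.08 without LZ_high replicate 1 and -0.06 without DZ_low replicate 3, with 0.17 at the other end of its range, and -0.04, -0.04, -0.03 and -0.01 in 4 blocked fits without 1 array. In the affinity difference within DZ, Ssr3 ran from -0.39 to 0.05, the last without DZ_high replicate 1, and was 0.02 with the block without that array; Eif2ak3 was 0.08 with the block without the same array; and Atf6 ran from -0.32 to 0.01, the last without DZ_low replicate 2, and was 0.04 with the block without that array. With the mean of both probe sets, Pdia4 was -0.54 between the zones and 0.87 for affinity in DZ. The cause of these shifts was not tested. The remaining values of named members kept their side of the threshold in 1716 recomputations, and their direction too, except for Sdf2l1 between the zones. That difference was 0 after rounding and ran from -0.11 to 0.08 over the alternatives. Differences of probe sets near their array's median, such as Fkbp11 and Chac1, rest on dim signal.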
